A study of Mus musculus with 12 samples.

Results

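Chemokines and their receptors were followed in mouse liver RNA-seq on a high-fat diet with and without exercise. The members were the genes whose symbol begins with Ccl, Cxcl, Ccr or Cxcr and a number, or with Cx3c; 58 of the 55291 genes in the count table matched. Of these, 37 had 10 or more counts in at least 3 of the 12 libraries and are listed here: 24 ligands (13 CC, 10 CXC and 1 CX3C) and 13 receptors (7 CC, 5 CXC and 1 CX3C). Ccr1 and Ccr10 lay just inside that limit, with 10 and 12 counts in their third-highest library. Ccl7 and Ccl17 lay just outside it, with 8 and 6 counts. Ccl7 nevertheless had enough counts in the HFD libraries to be tested, so 38 members entered the tests, 25 ligands and 13 receptors.

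The libraries came from whole liver of male C57BL/6 mice that were 6 weeks old at the start and had 1 week of adaptive feeding. The NC group received a normal diet. The other groups received the D12492 high-fat diet: HFD with no exercise named, and, after 8 weeks of that diet, HFD+AE and HFD+RE with at least 12 weeks of exercise training of kinds that the labels abbreviate as AE and RE. Each group had 3 libraries. The labels number them 2, 4 and 5 in NC, 1 to 3 in HFD, 1 to 3 in HFD+AE and 3 to 5 in HFD+RE, and values below follow that order. No label states whether a group's libraries are separate mice, so p-values here reflect the spread between libraries alone, which could be technical.

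Chemokines are small secreted proteins that draw leukocytes along a gradient by binding G protein-coupled receptors on their surface. In liver they are made by hepatocytes, Kupffer cells, endothelial cells and stellate cells as well as by leukocytes, and the Ccl2 and Ccr2 pair is known for bringing blood monocytes into fatty liver. The receptors sit mostly on leukocytes, so in a bulk sample fewer cells of a type and less RNA per cell cannot be told apart.

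Total counts ran from 44373214 to 77665729 per library. All 7 hepatocyte markers checked were present, at a summed 58125 to 126176 CPM (counts scaled to the TMM-adjusted library total). HFD+AE 3 and HFD+RE 3 each stood apart from their own group. Across the 18305 genes tested, the deviations of HFD+RE 3 from each gene's mean correlated with those of HFD+AE 1 and 2 (r = 0.35 with both) and inversely with those of HFD+RE 4 and 5 (-0.38 and -0.33). Those of HFD+AE 3 had r of 0.38 and -0.01 with HFD+RE 4 and 5, and -0.16 and -0.03 with HFD+AE 1 and 2. Whether these labels were exchanged cannot be checked here, so every value given for HFD+AE or HFD+RE rests on the labels, and counts of calls are also given without both libraries. Mitochondrial rRNA genes took 0.708% to 0.924% of the NC counts, 1.76% to 3.26% in HFD, 0.771% to 0.867% in HFD+AE and 0.685% to 1.71% in HFD+RE. Levels of short genes were relatively high in HFD (rank correlation of a library's deviation with gene length -0.29 to -0.15) and relatively low in NC (0.08 to 0.21). This correlation was 0.29, 0.29 and -0.03 in HFD+AE and 0.22, -0.29 and -0.31 in HFD+RE, so it also differed between HFD+AE and HFD and split HFD+RE. The tested members had a median length of 2160 bases and all tested genes 3548 bases. The part of RNA quality and length in the results was not tested beyond the alternatives given in the closing section.

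Per length, Cxcl12 was the most abundant member in every library, at 34.7 to 58.7 CPM per kilobase. Cxcl12 binds Cxcr4 and retains haematopoietic cells in their niches. Ccl9, at 8.82 to 19.9 CPM per kilobase, and Cxcl1, at 3.08 to 30.1, followed by mean, and their ranges overlapped. Among receptors Cxcr4 (0.205 to 1.58 CPM per kilobase), Cxcr6 (0.212 to 2.92) and Cxcr3 (0.266 to 1.97) had the highest means per length, with overlapping ranges. Cxcl12 made up 70.5% to 71.8% of the listed ligand counts in NC, 68.1% to 74.7% in HFD, 83.8% to 84.5% in HFD+AE and 76.4% to 82.0% in HFD+RE. The exercise groups thus lay above both other groups in this share, which also depends on the other ligands.

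**Figure D1:**
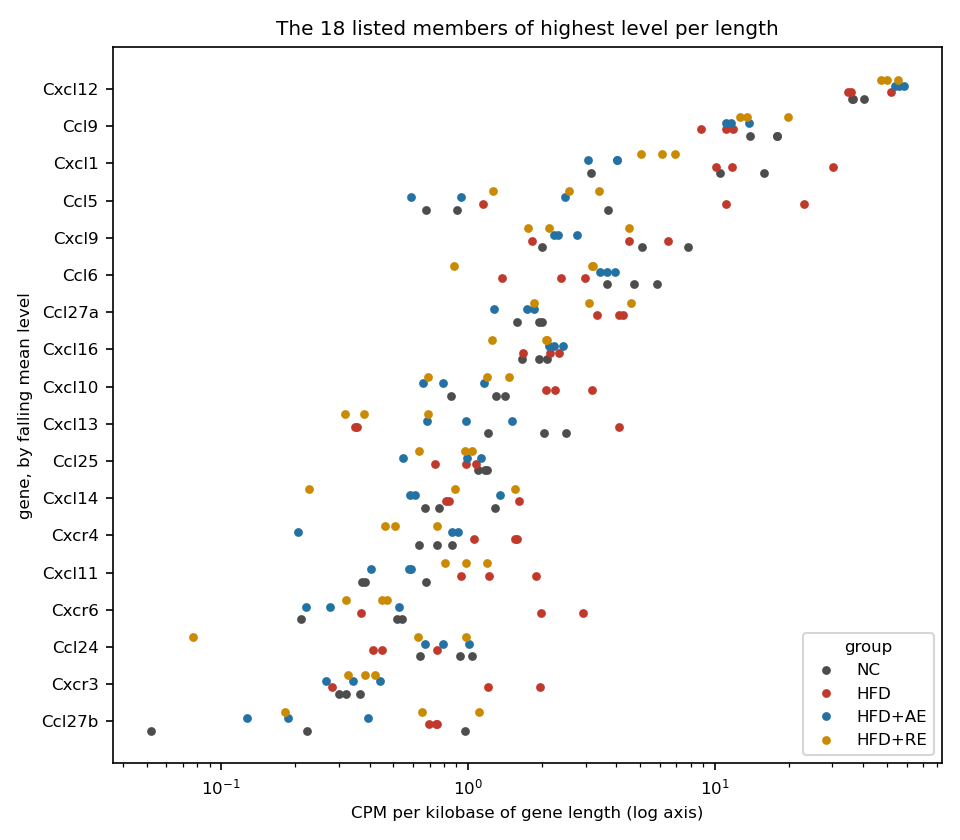
Level per gene length (x axis, CPM per kilobase, log axis) of the 18 listed members of highest mean, in each library (points, coloured by group). Cxcl12 lies to the right of every other member at 34.7 to 58.7 CPM per kilobase. Within the HFD group Ccl5, Cxcl13, Cxcr6 and Cxcr3 are the most widely spread, while the points of members such as Ccl27a and Cxcl16 lie close together.

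HFD was set against NC to ask what the diet did to the family. Of the 38 members tested, 14 rose (13 without Ccl7) and 1 fell at a Benjamini-Hochberg adjusted p below 0.05 in edgeR's quasi-likelihood test, where 8.38% of all 18305 genes tested rose and 7.19% fell. Among ligands 8 of 25 rose (Ccl2, Ccl7, Ccl22, Ccl27a, Cxcl2, Cxcl10, Cxcl11 and Cx3cl1) and 1 fell (Ccl9). Among receptors 6 of 13 rose (Ccr2, Ccr6, Ccr7, Cxcr3, Cxcr6 and Cx3cr1) and 0 fell. The median log2 change was 0.73 over the 37 listed members and 0.01 over all genes. In 12 of these 37 all HFD libraries lay above all NC libraries, against 23.9% of all genes. Ccr7 and Cx3cl1 are among the 12 through small gaps between HFD 2 and the highest NC library. Ccl7, Ccr1 and Cxcr5 met the low-count filter only with the help of HFD libraries, and Ccl7 in those alone. Ccl7 therefore had to differ, and its call is no result about the diet, though it stays in the counts of calls. The counts do not stand for all 58 matching genes.

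The 14 higher calls leaned on 2 of the 3 HFD libraries: HFD 2 was the lowest HFD library for 13 of the 14 genes, all but Cxcl10. The 15 calls, where 15.6% of all genes were called in either direction, became 1 without NC 2 (Ccl7; 4.96% of all genes) and 0 in edgeR without NC 4 (19 members at an unadjusted p under 0.05; 3.06% of all genes). They became 7 without NC 5 (11% of all genes), 1 without HFD 1 (Cxcl11; 2.6%) and 1 without HFD 3 (Ccl7; 2.21%). The counts in this paragraph include Ccl7 wherever it was called. Without NC 2 and without HFD 3 it was the only member called, so those fits left no call to take as a result. Without HFD 2 there were 16 (18.8% of all genes). Without HFD+AE 3 and HFD+RE 3 together there were 18, where the share of all genes called was 33.1%, and DESeq2 made 17 calls, where it called 20.6%. The number of members called thus moved with the share of all genes called.

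With the trend of gene length removed, 10 members were called (14.5% of all genes). Ccl2 (adjusted p = 0.055), Cxcl2 (0.063), Cxcl10 (0.066), Cxcr3 (0.053) and Cxcr6 (0.062) then lost their calls. With the length and GC trends removed together, Ccl27a, Ccl9 and Cxcr3 did.

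Markers of liver cells that make chemokines also differed between NC and HFD. The summed hepatocyte markers were at 108492 to 126176 CPM in NC and 58125 to 82758 CPM in HFD, and 3 of 7 fell (Cps1, Alb and Tat). They were at 106886 to 112516 CPM in HFD+AE and 87009 to 113948 CPM in HFD+RE. Of 7 stellate cell markers 5 rose, such as the collagen gene Col1a1 (log2 change 1.99), and their sum was 116 to 131 CPM in NC and 223 to 328 CPM in HFD. It was 213 to 226 CPM in HFD+AE and 180 to 249 CPM in HFD+RE. Of 7 sinusoidal endothelial markers 2 fell (Kdr and Cdh5), and their sum was 211 to 267 CPM in NC, 89.2 to 153 CPM in HFD, 171 to 310 CPM in HFD+AE and 77.0 to 226 CPM in HFD+RE. None of these markers was at 0 in all libraries, and their part in the chemokine levels was not tested.

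**Figure D2:**
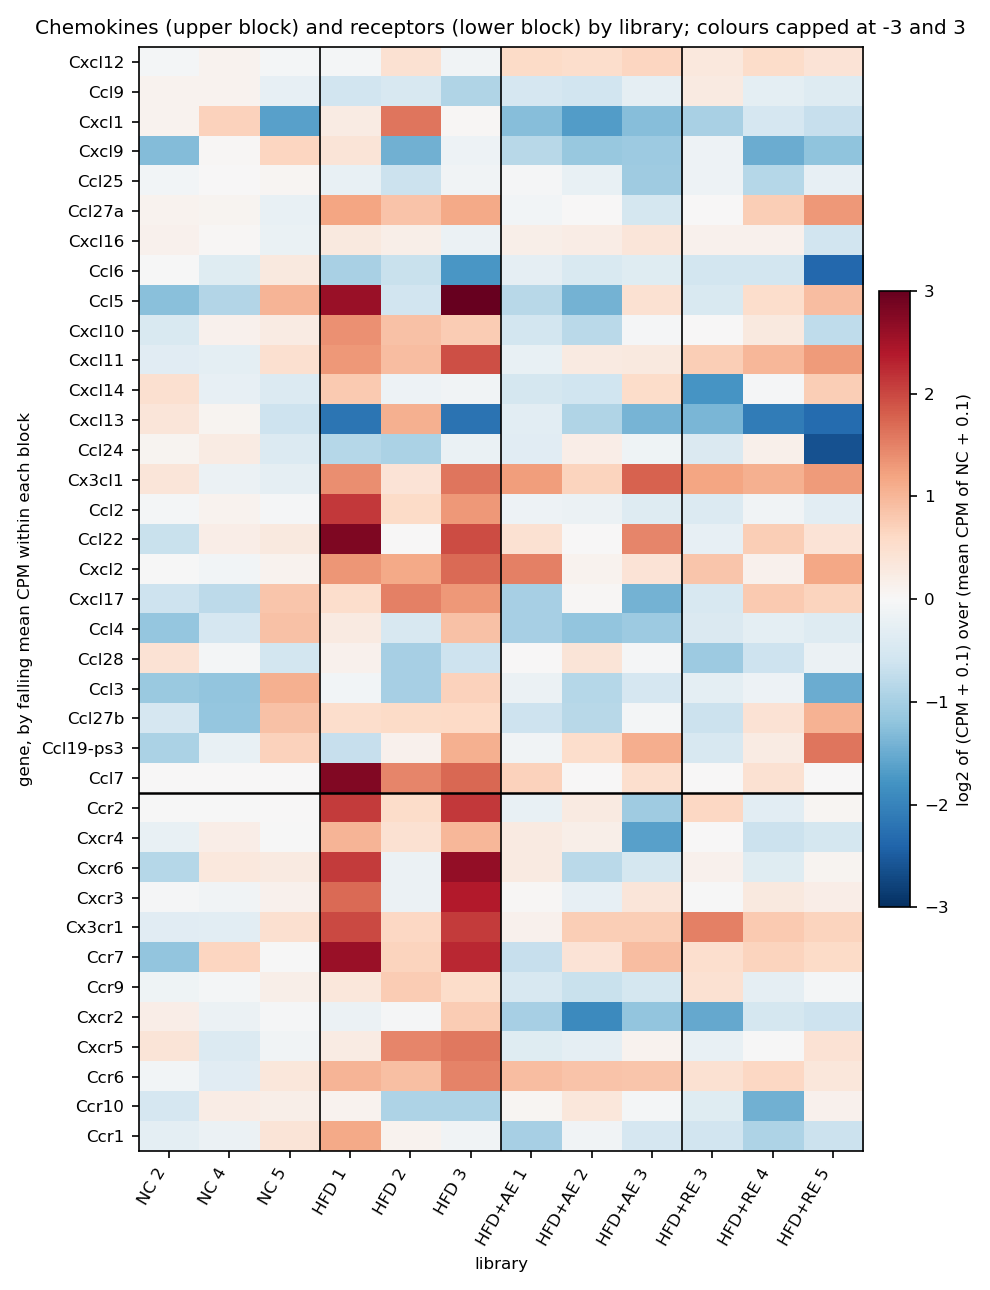
Level of 37 of the 38 tested members (rows; ligands above the line, receptors below) in the 12 libraries (columns), as log2 of CPM plus 0.1 over the NC mean plus 0.1. HFD 1 and HFD 3 carry most of the red cells in the receptor block, and HFD 2 is paler for Ccr2, Cxcr3, Cxcr6 and Ccr7.

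Ccl2, which attracts monocytes through Ccr2, rose in HFD, as did that receptor. Ccl2 (chr11:82035571-82037453, + strand, mm10) was at 0.335, 0.392 and 0.342 CPM in NC and at 1.87, 0.578 and 1.03 CPM in HFD. It was at 0.311, 0.301 and 0.247 CPM in HFD+AE and at 0.246, 0.327 and 0.266 CPM in HFD+RE. All 3 HFD libraries lay above the other 9. The mean rose from 0.356 ± 0.0310 to 1.16 ± 0.655 CPM (SD, n = 3; log2 change 1.70, SE 0.42, adjusted p = 0.023).

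Ccr2 (chr9:124101950-124113557, + strand) was at 1.64, 1.65 and 1.68 CPM in NC and at 7.43, 2.47 and 7.58 CPM in HFD. It was at 1.40, 2.00 and 0.741 CPM in HFD+AE and at 2.61, 1.31 and 1.73 CPM in HFD+RE. The NC libraries were close to one another, HFD 1 and 3 were high, and HFD 2 lay above NC but below HFD+RE 3. The change from NC to HFD was 1.82 on the log2 scale (SE 0.44, adjusted p = 0.021). Ccl7 (chr11:82045712-82047525, + strand), another Ccr2 ligand and the next gene beside Ccl2, had 0 counts in all NC libraries and 0.584, 0.178 and 0.229 CPM in HFD. Against a floor of 3 counts over the NC group it was at least 19.0-fold higher in HFD, a description with no test. It was at 0.0623, 0 and 0.0412 CPM in HFD+AE and at 0, 0.0363 and 0 CPM in HFD+RE, so the 3 HFD libraries held the highest levels. Among markers of monocytes and recruited macrophages, 2 of the 9 tested rose (Ly6c2 and Plac8), 1 fell (Cd9), and their summed level was 23.3 to 26.2 CPM in NC and 18.3 to 35.3 CPM in HFD, lowest in HFD 2. Their part in the result was not tested.

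Cxcl10 and Cxcl11, interferon-induced ligands of Cxcr3, rose in HFD, while Cxcl9, the third ligand of that receptor, did not pass the test. The 3 genes lie side by side on chromosome 5. Cxcl10 (chr5:92346638-92348889, - strand) was at 1.93, 2.94 and 3.19 CPM in NC and at 7.16, 5.07 and 4.66 CPM in HFD, without overlap (log2 change 1.06, SE 0.33, adjusted p = 0.045). It was at 1.79, 1.49 and 2.62 CPM in HFD+AE and at 2.70, 3.31 and 1.55 CPM in HFD+RE, all below the HFD libraries.

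Cxcl11 (chr5:92359544-92365485, - strand) was at 1.41, 1.46 and 2.56 CPM in NC and at 4.61, 3.56 and 7.15 CPM in HFD, again without overlap (log2 change 1.49, SE 0.33, adjusted p = 0.015). It was at 1.54, 2.20 and 2.22 CPM in HFD+AE and at 3.06, 3.72 and 4.56 CPM in HFD+RE. HFD+AE lay within the NC range and below HFD, and HFD+RE lay above NC and overlapped HFD. The GENCODE M21 annotation classes Cxcl11 as a polymorphic pseudogene, and its exons share 41.7% of their length with Gm2673 on the other strand, which was at 0 in all 12 libraries. The strand setting of the counting is not given in the sources used here. Cxcl9 (chr5:92321347-92328079, - strand) was at 6.00, 15.3 and 23.6 CPM in NC and at 19.5, 5.47 and 13.6 CPM in HFD (log2 change -0.22, SE 0.49, adjusted p = 0.77). It was at 8.33, 6.77 and 6.98 CPM in HFD+AE and at 13.5, 5.29 and 6.44 CPM in HFD+RE. Both NC and HFD spread widely and overlapped, and the HFD+AE libraries were close together.

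The 250 bases before the RefSeq gene start (GRCm38.p6) are shown for Cxcl10 (chr5:92348890-92349139, minus strand) because it is known as interferon-induced and rose in HFD. Capitals mark matches on either strand to GAAANNGAA, the core of interferon response elements, and to the kappaB consensus, which NF-kappaB factors bind. Overlapping matches are run together.
Cxcl10: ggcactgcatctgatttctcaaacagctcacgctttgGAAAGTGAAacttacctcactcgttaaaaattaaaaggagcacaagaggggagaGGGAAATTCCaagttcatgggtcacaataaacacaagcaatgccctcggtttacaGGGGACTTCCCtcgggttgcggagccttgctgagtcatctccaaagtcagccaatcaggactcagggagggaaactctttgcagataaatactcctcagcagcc
GAAANNGAA lies 213 to 205 bases before the start of Cxcl10. The kappaB consensus matched at 159 to 150 and, as overlapping matches, at 104 to 95 and 103 to 94 bases before the start. Of all 32851 promoter windows of this length, 7.13% held GAAANNGAA and 7.25% the kappaB consensus. Of the 25 listed members with a window in RefSeq, 5 held GAAANNGAA and 6 the kappaB consensus. Members were counted by gene, and Ccl25, Ccl27a, Ccl27b and Ccr6 have several windows each. The shares above are of windows, so the members' counts are not on the same footing. A match describes letters and shows no binding.

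Cxcr3 (chrX:101731535-101734269, - strand), the receptor of these ligands on activated T and NK cells, was at 0.558, 0.522 and 0.631 CPM in NC and at 2.08, 0.489 and 3.40 CPM in HFD. It was at 0.592, 0.461 and 0.762 CPM in HFD+AE and at 0.567, 0.727 and 0.666 CPM in HFD+RE. HFD 1 and 3 lay above all other libraries and HFD 2 below every NC library, so the groups overlapped. The fit gave a rise (log2 change 1.81, SE 0.52, adjusted p = 0.036). Among 12 interferon response genes 7 rose (such as Ifit3, an antiviral RNA-binding protein, log2 change 1.79, and Isg15, a ubiquitin-like modifier, 1.54), where 8.38% of all genes did. Gbp4 and Gbp2 went the other way without passing (log2 changes -0.73 and -0.26). The summed level of the 12 was 107 to 118 CPM in NC and 185 to 221 CPM in HFD. It was 127 to 168 CPM in HFD+AE and 139 to 164 CPM in HFD+RE. HFD 2, at 185 CPM, thus stood above NC for these genes. Their part in the result was not tested.

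Cxcr6 (chr9:123806475-123811760, + strand), a receptor of T and natural killer T cells that patrol the liver, followed the same libraries. It was at 0.409, 1.04 and 0.999 CPM in NC and at 3.81, 0.711 and 5.63 CPM in HFD (log2 change 2.05, SE 0.61, adjusted p = 0.039). It was at 1.01, 0.425 and 0.535 CPM in HFD+AE and at 0.908, 0.618 and 0.865 CPM in HFD+RE. HFD 1 and 3 were high, and HFD 2 lay inside the NC range. Its ligand Cxcl16, which is anchored in the membrane, was at 6.30, 5.89 and 5.02 CPM in NC, 7.08, 6.54 and 5.08 in HFD, 6.46, 6.77 and 7.37 in HFD+AE and 6.33, 6.27 and 3.79 in HFD+RE. For Cxcl16 HFD overlapped NC (log2 change 0.12, SE 0.23, adjusted p = 0.73), and HFD+AE lay above every NC and HFD+RE library without passing the test against either (adjusted p = 0.68 and 0.64). The gene Zmynd15 overlaps 18.3% of its length on the other strand.

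The summed level of 14 T and NK cell markers was 5.47, 6.00 and 13.9 CPM in NC and 27.3, 6.74 and 55.0 CPM in HFD, and 6 of the 14 rose, among them Trac, the T-cell receptor alpha constant gene (log2 change 2.14), and Cd247 (2.17). It was 4.31 to 8.14 CPM in HFD+AE and 6.96 to 10.5 CPM in HFD+RE. None of the 14 was at 0 in all libraries. HFD 2 was thus the low HFD library for these markers, as for Cxcr3, Cxcr6, Ccr7 and Ccl5. Among B and plasma cell markers 5 of 8 rose (summed 27.9 to 45.2 CPM in NC and 42.7 to 167 CPM in HFD). The part of these cell types in the receptor levels was not tested.

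**Figure D3:**
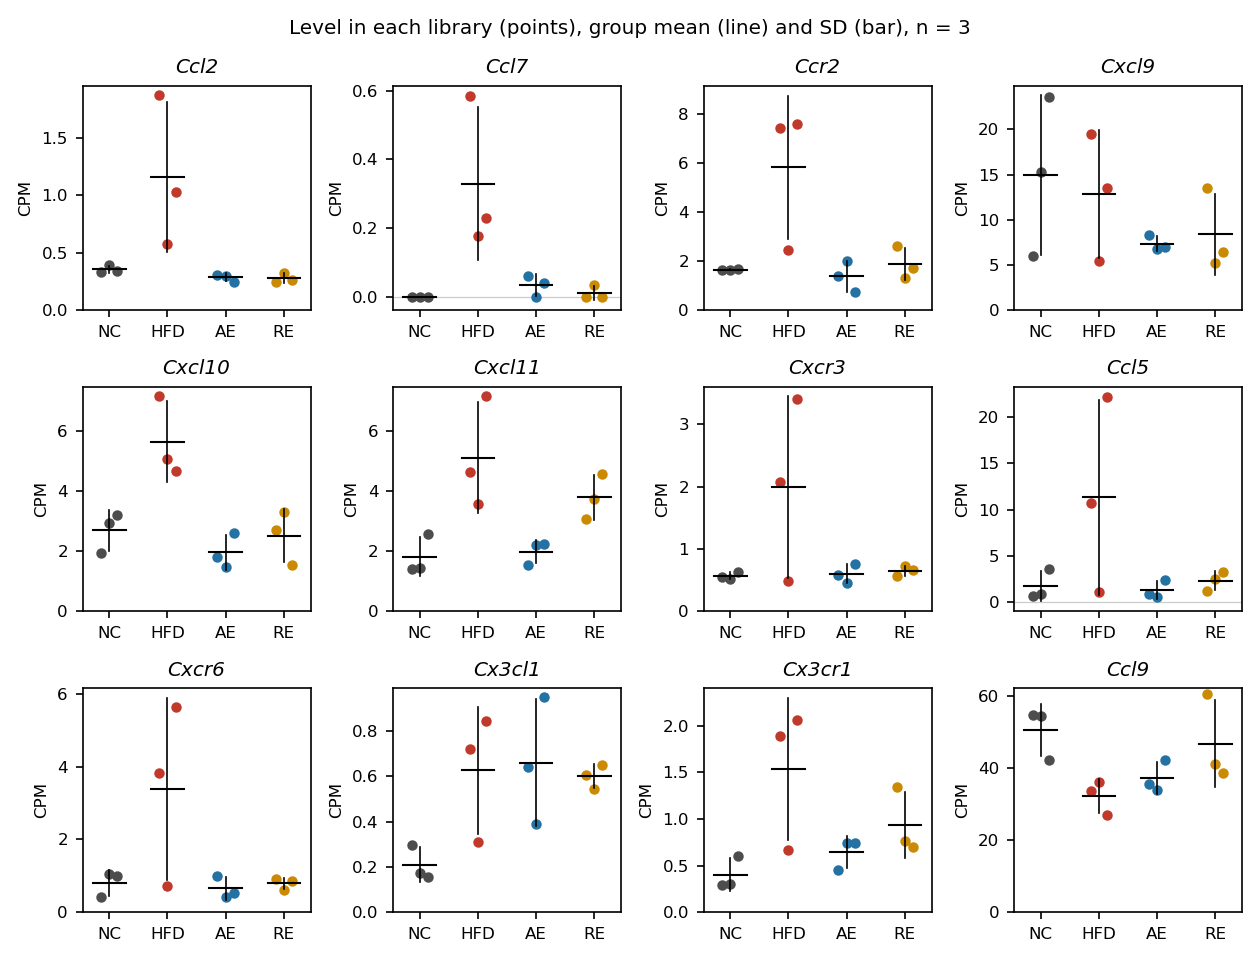
CPM (y axis, linear) of 12 members in each library (points) by group (x axis; AE and RE stand for HFD+AE and HFD+RE), with the mean (line) and SD (bar) of 3 libraries. For Ccl2 the HFD points at 0.578 to 1.87 CPM lie above all others, whereas for Cxcr6 and Ccl5 1 HFD point lies among the NC points and for Cxcr3 1 lies below them.

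Ccl5, a ligand of Ccr1 made by T and NK cells, was at 0.651, 0.870 and 3.55 CPM in NC and at 10.7, 1.11 and 22.2 CPM in HFD. It was at 0.903, 0.567 and 2.37 CPM in HFD+AE and at 1.21, 2.47 and 3.28 CPM in HFD+RE. HFD 1 and 3 held the highest levels and HFD 2 lay within NC. The change did not pass (log2 change 2.73, SE 0.89, adjusted p = 0.053). It passed without HFD 2, without NC 5, and with DESeq2 over all 12 libraries. The inflammatory ligands Ccl3 and Ccl4 did not pass either, at 0.0333 to 0.683 and 0.0709 to 0.618 CPM over the 12 libraries, with NC 5 the highest for both.

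Ccr1, a receptor of Ccl3, Ccl5, Ccl6 and Ccl9, was at 0.112, 0.131 and 0.237 CPM in NC, 0.467, 0.178 and 0.143 in HFD, 0.0312, 0.142 and 0.0824 in HFD+AE and 0.0756, 0.0363 and 0.0666 in HFD+RE. Only HFD 1 stood above NC, and Ccr1 did not pass (log2 change 0.68, SE 0.64, adjusted p = 0.47).

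Ccl9 and Ccl6 are macrophage chemokines that bind Ccr1 and, like Ccl2, lie on chromosome 11. Ccl9 (chr11:83572919-83578636, - strand) was at 54.8, 54.5 and 42.3 CPM in NC and at 33.7, 36.0 and 26.9 CPM in HFD, without overlap, and fell by 0.65 on the log2 scale (SE 0.21, adjusted p = 0.048). It was at 35.6, 33.8 and 42.1 CPM in HFD+AE and at 60.4, 41.2 and 38.5 CPM in HFD+RE. HFD+AE lay below NC, and HFD+RE 3 was the highest of all libraries. Ccl6 was at 6.59 to 10.5 CPM in NC and 2.47 to 5.33 CPM in HFD and did not pass (log2 change -1.08, SE 0.41, adjusted p = 0.082). Ccl24, an eosinophil attractant of macrophages, was at 1.21, 1.35 and 0.828 CPM in NC and at 0.584, 0.533 and 0.973 CPM in HFD. It was at 0.872, 1.31 and 1.03 CPM in HFD+AE and at 0.813, 1.27 and 0.0998 CPM in HFD+RE. HFD+RE 5 was far below every other library for Ccl24, and the HFD vs NC change did not pass (log2 change -0.68, SE 0.59, adjusted p = 0.43). Among 9 Kupffer cell markers 2 fell in HFD (Cd163 and Folr2), and their summed level was 222 to 368 CPM in NC, 98.5 to 221 CPM in HFD, 216 to 329 CPM in HFD+AE and 56.0 to 312 CPM in HFD+RE, lowest in HFD+RE 5. Their part in these levels was not tested.

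Cxcl1 and Cxcl2 attract neutrophils through Cxcr2, and only Cxcl2 of the 2 ligands passed. Cxcl2 (chr5:90903871-90905938, + strand) was at 0.186, 0.174 and 0.210 CPM in NC and at 0.623, 0.533 and 0.844 CPM in HFD, without overlap (log2 change 1.80, SE 0.52, adjusted p = 0.038). It was at 0.732, 0.213 and 0.288 CPM in HFD+AE and at 0.416, 0.218 and 0.549 CPM in HFD+RE, where HFD+AE 1 and HFD+RE 5 reached the HFD range. Cxcl1 (chr5:90891241-90893115, + strand) was at 19.8, 29.8 and 5.93 CPM in NC and at 22.0, 56.5 and 19.1 CPM in HFD. It was at 7.55, 5.78 and 7.54 CPM in HFD+AE and at 9.42, 12.9 and 11.5 CPM in HFD+RE. HFD 2 held the highest level, unlike for most members called, and HFD 1 and 3 lay within the NC range (log2 change 0.81, SE 0.48, adjusted p = 0.24). Cxcr2 was at 0.348 to 0.483 CPM in NC, 0.35 to 0.758 CPM in HFD, 0.0354 to 0.156 CPM in HFD+AE and 0.0756 to 0.254 CPM in HFD+RE. Both exercise groups thus lay below every NC and HFD library for this receptor. Cxcl3 was at 0 in all 12 libraries and Cxcl5 had at most 0.195 CPM. Of 9 neutrophil markers 6 were tested and 0 rose or fell in edgeR (2 higher at an unadjusted p under 0.05, 1 called higher by DESeq2), with sums of 4.79 to 6.58 CPM in NC, 7.89 to 15.4 in HFD, 2.66 to 3.85 in HFD+AE and 2.89 to 9.95 in HFD+RE, and their part was not tested.

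The windows before the starts of Cxcl1 (chr5:90890995-90891244, plus strand) and Cxcl2 (chr5:90903649-90903898, plus strand) are shown because these ligands of Cxcr2 share a short stretch around the kappaB consensus (capitals). Their levels differed across the HFD libraries, and any part of these windows in that was not tested.
Cxcl1: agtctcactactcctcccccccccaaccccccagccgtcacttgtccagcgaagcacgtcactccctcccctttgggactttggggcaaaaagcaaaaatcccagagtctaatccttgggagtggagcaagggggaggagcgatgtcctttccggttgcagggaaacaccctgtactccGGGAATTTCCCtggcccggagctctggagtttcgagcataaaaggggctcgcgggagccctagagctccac
Cxcl2: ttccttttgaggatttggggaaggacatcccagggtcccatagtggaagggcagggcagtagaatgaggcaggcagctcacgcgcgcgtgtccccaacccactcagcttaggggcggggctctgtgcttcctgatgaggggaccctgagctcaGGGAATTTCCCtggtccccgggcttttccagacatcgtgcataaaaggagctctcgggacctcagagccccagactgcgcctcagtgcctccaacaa
The longest run common to both windows was 14 bases, GGGAATTTCCCTGG, beginning 71 bases before the start of Cxcl1 and 97 before that of Cxcl2. It holds 2 overlapping matches to the kappaB consensus in each gene. The distances are from the RefSeq starts. In the count table the genes begin earlier, at chr5:90891241 (Cxcl1) and chr5:90903871 (Cxcl2), inside the windows shown. The difference between the 2 distances thus depends on the annotation.

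Cx3cl1, which is held on the cell membrane, and its receptor Cx3cr1, found on monocytes and some T and NK cells, both rose in HFD. Cx3cl1 (chr8:94772009-94782427, + strand) was at 0.297, 0.174 and 0.158 CPM in NC and at 0.720, 0.311 and 0.844 CPM in HFD (log2 change 1.59, SE 0.48, adjusted p = 0.042). It was at 0.639, 0.390 and 0.947 CPM in HFD+AE and at 0.605, 0.545 and 0.649 CPM in HFD+RE. All 9 libraries of the 3 high-fat groups lay above all NC libraries. HFD 2 (0.3112 CPM, 14 counts) stood barely above NC 2 (0.2974 CPM, 16 counts), an order set by the scaling and a gap too small to read. Cx3cr1 (chr9:119901616-120069879, - strand) was at 0.297, 0.304 and 0.605 CPM in NC and at 1.89, 0.667 and 2.06 CPM in HFD (log2 change 1.91, SE 0.48, adjusted p = 0.024). It was at 0.452, 0.744 and 0.741 CPM in HFD+AE and at 1.34, 0.763 and 0.699 CPM in HFD+RE. All 6 lay below HFD 1 and 3, and all but HFD+AE 1 lay above NC.

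Ccr7, which guides naive T cells and mature dendritic cells to lymphoid tissue, was at 0.0372, 0.392 and 0.210 CPM in NC and at 1.77, 0.400 and 1.40 CPM in HFD (log2 change 2.50, SE 0.73, adjusted p = 0.038). It was at 0.0935, 0.319 and 0.494 CPM in HFD+AE and at 0.340, 0.400 and 0.366 CPM in HFD+RE. HFD 1 and 3 were high, and HFD 2 lay just above NC 4, with 18 counts in each, a gap too small to read. Its ligands Ccl19, Ccl21a, Ccl21b and Ccl21d were not listed. Ccl19 reached 0.454 CPM in HFD+RE 4 and at most 0.0889 CPM elsewhere, and Ccl19 and the Ccl21 genes have near copies that can share reads. Ccl19-ps3, which the rule counts as a ligand, is an annotated pseudogene at 0 to 0.483 CPM.

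Ccl22, a ligand of Ccr4 made by dendritic cells and macrophages, was at 0.0743, 0.217 and 0.237 CPM in NC and at 1.81, 0.178 and 0.973 CPM in HFD (log2 change 2.46, SE 0.76, adjusted p = 0.045). It was at 0.280, 0.177 and 0.659 CPM in HFD+AE and at 0.132, 0.363 and 0.266 CPM in HFD+RE. HFD 2 lay within NC here too. Ccl17, the other Ccr4 ligand, and Ccr4 itself were not listed. Ccr6, the receptor of Ccl20 on B cells and some T cells, was at 0.0743, 0.0435 and 0.131 CPM in NC and at 0.273, 0.244 and 0.415 CPM in HFD (log2 change 1.83, SE 0.52, adjusted p = 0.034). It was at 0.249, 0.230 and 0.227 CPM in HFD+AE and at 0.151, 0.182 and 0.133 CPM in HFD+RE, and all 9 libraries of the 3 high-fat groups lay above NC. Its counts were few, at 4, 2 and 10 in NC and 8, 10 and 8 in HFD+RE. HFD+RE 5 (0.1331 CPM) stood barely above NC 5 (0.1314 CPM), a gap too small to read. Ccl20 had counts in 1 library.

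Ccl27a, a skin-homing ligand of Ccr10, was at 4.76, 4.63 and 3.76 CPM in NC and at 10.2, 7.96 and 9.78 CPM in HFD, without overlap (log2 change 1.09, SE 0.29, adjusted p = 0.028). It was at 4.11, 4.39 and 3.03 CPM in HFD+AE and at 4.42, 7.38 and 10.9 CPM in HFD+RE. HFD+RE 5 stood above the HFD libraries, HFD+RE 4 just below them and HFD+RE 3 within NC, so HFD+RE spanned both groups. Ccl27a has a near copy, Ccl27b, at 0.0217 to 0.466 CPM, and reads may be shared between them. Ccr10 was at 0 to 0.248 CPM and did not pass.

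Homeostatic ligands direct the routine traffic of leukocytes; of the 7 tested, Ccl27a rose in HFD and the other 6 did not pass. Cxcl12 was at 296, 329 and 297 CPM in NC and at 293, 423 and 284 CPM in HFD (log2 change 0.12, SE 0.19, adjusted p = 0.68). It was at 455, 442 and 480.2 CPM in HFD+AE and at 385, 452 and 407 CPM in HFD+RE. Every exercise library lay above NC, and HFD 2 stood with the exercise libraries. Its receptor Cxcr4 was at 1.15, 1.57 and 1.35 CPM in NC and at 2.86, 1.91 and 2.80 CPM in HFD, without overlap but below the threshold for a call (log2 change 0.90, SE 0.44, adjusted p = 0.16). It was at 1.65, 1.56 and 0.371 CPM in HFD+AE and at 1.36, 0.836 and 0.915 CPM in HFD+RE, with HFD+AE 3 the lowest.

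Cxcl13, the B-cell attractant that binds Cxcr5, was at 2.88, 2.35 and 1.39 CPM in NC and at 0.409, 4.71 and 0.401 CPM in HFD. It was at 1.75, 1.13 and 0.783 CPM in HFD+AE and at 0.794, 0.436 and 0.366 CPM in HFD+RE. HFD 2 was the highest of all 12 libraries while HFD 1 and 3 lay below NC, and the group change did not pass (log2 change -0.27, SE 0.75, adjusted p = 0.82). Without HFD 2 it was called lower. Cxcr5 did not pass (log2 change 1.67, SE 0.57, adjusted p = 0.063), at 0.087 to 0.223 CPM in NC and 0.195 to 0.644 CPM in HFD. Ccl25, the gut-homing ligand of Ccr9, was at 8.18 to 8.93 CPM in NC and 5.49 to 8.04 CPM in HFD, below NC in all 3 libraries (log2 change -0.31, SE 0.27, adjusted p = 0.44). Ccr9 was at 0.409 to 0.526 CPM in NC and 0.603 to 0.845 CPM in HFD (log2 change 0.65, SE 0.36, adjusted p = 0.21), and Gm17021 overlaps 18.8% of its length on the other strand. Cxcl14, Cxcl17 and Ccl28 also did not pass, with log2 changes of 0.26, 1.43 and -0.59. Over the 12 libraries they were at 0.416 to 2.94, 0.0206 to 0.822 and 0.0756 to 0.409 CPM.

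HFD+AE was compared with HFD to ask how AE exercise on the diet changed these genes; the comparison shares the HFD libraries with the one above. With edgeR, 0 of 38 members were called, where 0.0492% of all genes were. At an unadjusted p under 0.05, 19 members were lower, against 13.1% of all genes, and 1 (Cxcl12) was higher, against 13.3%. In 15 of 38 members all HFD+AE libraries lay below all HFD libraries, against 16.3% of all genes. Ccl7, Ccr1 and Cxcr5, which met the low-count filter only with the help of HFD libraries, are among these 19 and 15. They entered the tests, and so the median that follows, through their HFD levels. Their lower levels are therefore no result about AE, though they stay in the counts. The median log2 change was -1.27 over the members and 0.00 over all genes. DESeq2 called 15 members lower (Ccl2, Ccl4, Ccl5, Ccl27a, Cxcl1, Cxcl10, Cxcl11, Cxcl17, Ccr2, Ccr7, Ccr9, Cxcr2, Cxcr3, Cxcr5 and Cxcr6), where it called 6.32% of genes lower.

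The members with the smallest adjusted p in edgeR were Ccr2 (log2 change -2.07, SE 0.44, adjusted p = 0.06), Ccl2 (log2 change -2.00, SE 0.43, adjusted p = 0.06) and Cxcl10 (log2 change -1.52, SE 0.34, adjusted p = 0.06). For these 3 the HFD+AE libraries lay below every HFD library. Cxcl1 had log2 change -2.22, SE 0.50, adjusted p = 0.061, from 32.5 ± 20.8 CPM in HFD to 6.96 ± 1.02 CPM in HFD+AE (SD, n = 3). Among receptors 10 of 13 were lower at an unadjusted p under 0.05, including Cxcr6 (log2 change -2.36, SE 0.61, adjusted p = 0.063), Cxcr2 (log2 change -2.24, SE 0.60, adjusted p = 0.067) and Cxcr3 (log2 change -1.73, SE 0.52, adjusted p = 0.078). Among ligands 9 of 25 were, including Ccl5 (log2 change -3.16, SE 0.91, adjusted p = 0.073). The 10 receptors include Ccr1 and Cxcr5, and the 9 ligands include Ccl7, which the low-count filter let in through HFD libraries. Cx3cl1 and Ccr6, which rose in HFD vs NC, had log2 changes of 0.06 and -0.41 with AE.

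The count depended on the libraries in the fit. Without HFD 2, 12 members were called (11 lower and Cxcl12 higher), where 8.93% of all genes were. Without HFD+RE 3, which does not enter the contrast but does enter the shared spread, 11 were called, all lower (10.2% of all genes in either direction). Without HFD+RE 5, 2 were called lower (Ccl27a and Cxcl10), where 0.659% of all genes were called in either direction. Without HFD+AE 3 and HFD+RE 3 together 10 of the 38 were called, all lower, among them Ccl2, Ccr2, Cxcl10 and Cxcl11. The 10 include Cxcr5, whose lower level is no result about AE for the reason given above. That fit called 22.5% of all genes in either direction, and the share called lower was not worked out. Beside these values, 11 of 14 T and NK cell markers were lower at an unadjusted p under 0.05; edgeR called 0 of them and DESeq2 11. Their part in the result was not tested.

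**Figure D4:**
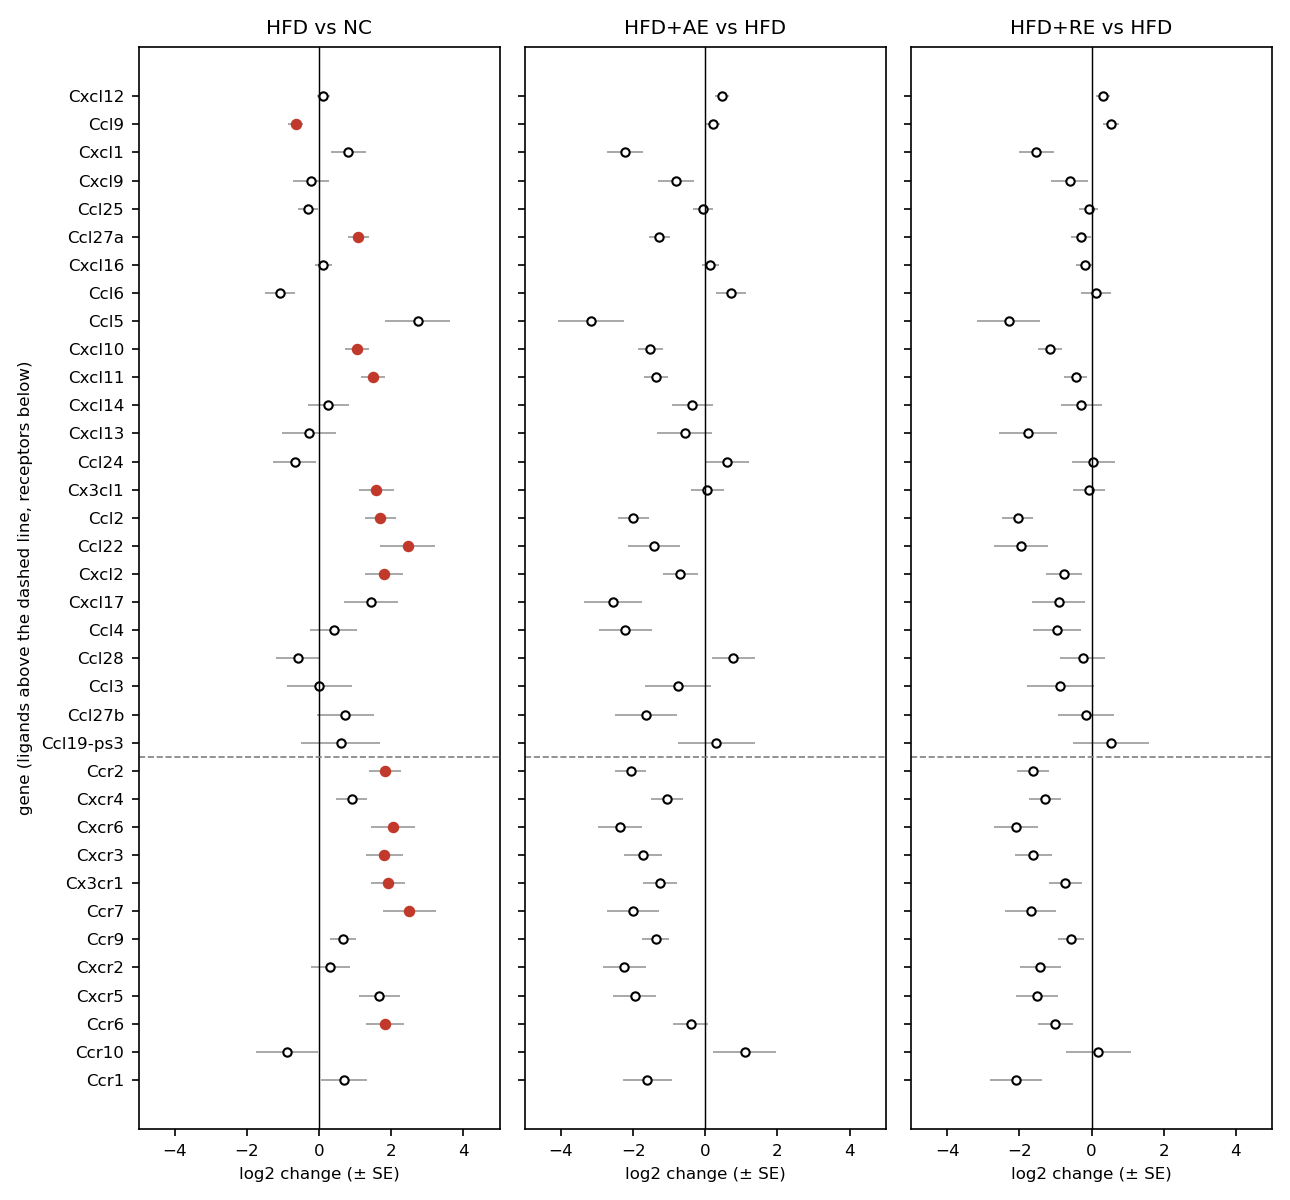
Log2 change (x axis, ± SE) of 36 listed members (ligands above the dashed line, receptors below) in 3 comparisons, with filled points for members called at an adjusted p below 0.05. Calls are present in HFD vs NC, and both exercise comparisons hold 0 filled points with most receptors left of 0; all 3 panels use the same HFD libraries.

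HFD+RE was compared with HFD in the same way and shares the same HFD libraries. With edgeR, 0 of 38 members were called, where 0.0109% of all genes were. At an unadjusted p under 0.05, 15 members were lower, against 4.78% of all genes, and 1 (Ccl9) was higher, against 3.99%. In 9 members all HFD+RE libraries lay below all HFD libraries (Ccl2, Ccl7, Cxcl1, Cxcl10, Ccr1, Ccr6, Ccr7, Cxcr2 and Cxcr4), against 6.99% of all genes. For Ccr7 this rests on 0.4001 CPM in HFD 2 against 0.3996 CPM in HFD+RE 4, a gap too small to read. Ccl7, Ccr1 and Cxcr5 are among the 15, and Ccl7 and Ccr1 among the 9. They met the low-count filter only with the help of HFD libraries, so their lower levels are no result about RE. They stay in these counts and in the median that follows. The median log2 change was -0.81 over the members and 0.04 over all genes. DESeq2 called 3 members lower (Ccl2, Ccr2 and Cxcr6), where it called 0.595% of genes lower. Without HFD 2, edgeR called 3 lower (Ccl2, Cxcr3 and Cxcr6), where it called 0.28% of all genes in either direction. Without HFD+AE 3 and HFD+RE 3 together edgeR called 0 members (10 at an unadjusted p under 0.05) and 0.0265% of all genes.

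The smallest adjusted p among members was that of Ccl2 (log2 change -2.04, SE 0.43, adjusted p = 0.24), from 1.16 ± 0.655 CPM in HFD to 0.280 ± 0.0422 CPM in HFD+RE (SD, n = 3). Ccr2 had log2 change -1.63, SE 0.44, adjusted p = 0.3, and Cxcl10 had log2 change -1.16, SE 0.33, adjusted p = 0.31. Cxcl11, whose HFD+RE and HFD libraries overlapped, had log2 change -0.44, SE 0.32, adjusted p = 0.72. Ccl27a had log2 change -0.29, SE 0.28, adjusted p = 0.79. Cxcl13 had log2 change -1.77, SE 0.80, adjusted p = 0.55, and without HFD 2 its log2 change was 0.39, the opposite direction. Among T and NK cell markers 12 of 14 were lower at an unadjusted p under 0.05; edgeR called 0 of them and DESeq2 5, and their part was not tested.

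The exercise groups were compared directly. In HFD+RE vs HFD+AE, 0 of 38 members were called by edgeR and 0 by DESeq2, where edgeR called 0% of all genes and DESeq2 0.134%. At an unadjusted p under 0.05, 3 members were higher in HFD+RE, against 8.02% of all genes in either direction: Ccl27a (log2 change 0.98, SE 0.29, adjusted p = 0.61), Cxcl11 (log2 change 0.93, SE 0.33, adjusted p = 0.61) and Ccr9 (log2 change 0.80, SE 0.37, adjusted p = 0.61). Without HFD+AE 3 and HFD+RE 3 together 2 of the 38 members were called, among them Ccl27a, higher in HFD+RE. That fit called 22.1% of all genes, so the members' share was below that of all genes.

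Against NC, which asked how far the exercise groups stood from the normal diet, edgeR called 0 members in HFD+AE, where it called 1.38% of all genes. At an unadjusted p under 0.05 there were 8 members, against 14% of all genes, and DESeq2 called 1 (Cx3cl1, higher), where it called 4.42%. Cx3cl1 had log2 change 1.64, SE 0.48, adjusted p = 0.12, Cxcr2 log2 change -1.93, SE 0.60, adjusted p = 0.14 and Cxcl12 log2 change 0.58, SE 0.19, adjusted p = 0.17. Without NC 5, 1 member (Cxcl1, lower) was called, where 1.2% of all genes were. Without HFD+AE 3 and HFD+RE 3 together edgeR called 0 (6 at an unadjusted p under 0.05) and 1.66% of all genes. In HFD+RE vs NC edgeR called 0 members, where it called 3.96% of all genes, and 8 had an unadjusted p under 0.05, against 24.5% of all genes. DESeq2 called 4 (among them Cxcl11 and Cx3cl1 higher and Cxcl13 lower), where it called 11.2%. Cxcl11 had log2 change 1.05, SE 0.33, adjusted p = 0.082 and Cx3cl1 log2 change 1.51, SE 0.48, adjusted p = 0.088. Without HFD+RE 3 there were 3 calls (among them Ccl27a and Cxcl11), where 21% of all genes were called, and without HFD 2 there was 1 (Cxcl13; 3.55%). Without HFD+AE 3 and HFD+RE 3 together there were 4, where 31.7% of all genes were called, so in both fits that leave out HFD+RE 3 the members' share was below that of all genes.

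Other genes of the pathway were taken from 2 lists. Of 12 tested ligands and receptors outside the naming rule, 2 rose in HFD vs NC and 1 fell, where 8.38% of all genes rose and 7.19% fell. Pf4 and Ppbp, chemokines stored in platelets, rose by 1.65 and 2.20 on the log2 scale (adjusted p = 0.033 and 0.037). Cmklr1, the receptor of chemerin, fell by 1.62 (adjusted p = 0.026), and Ackr1, an atypical receptor that binds chemokines without signalling, did not pass (log2 change 1.47, adjusted p = 0.06). Of 25 tested genes that act below the receptors or limit them, 3 rose and 2 fell, shares near those of all genes. Rac2, a GTPase of leukocyte movement, rose by 1.19 (adjusted p = 0.038), Elmo1, which activates Rac, by 0.98 (0.033), and Pik3r5, a subunit of PI3K gamma, by 1.06 (0.041). Arrb1, the beta-arrestin that uncouples receptors, fell by 0.89 (0.024) and the kinase Lyn by 0.57 (0.047). In both exercise comparisons with HFD, 0 genes of the 2 lists were called by edgeR. At an unadjusted p under 0.05, AE had 5 higher and 6 lower of the 37 genes of both lists, near the 13.3% and 13.1% of all genes. RE had 0 higher and 5 lower, against 3.99% and 4.78% of all genes. DESeq2 called 3 with AE and 2 with RE, where it called 11.7% and 0.946% of all genes in either direction.

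The genes of most similar pattern to Ccl7, the called member of smallest p, were Anxa2 (Pearson r of log2 CPM 0.940 over 12 libraries), Kbtbd11 (0.923), Sprr1a (0.923), Pde2a (0.922) and Snord72 (0.912). These values describe libraries that share their groups, depth and base composition. Ccl7 is at 0 in 6 of the 12.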

How the data were processed

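The authors deposited 1 table of raw read counts per gene, made with featureCounts 2.0.6 per the file headers. Trimming with fastp, alignment with HISAT2 2.2.1, DESeq2 1.40.1 and the mm10 build are named in the submitters' processing notes. No source used here gives the strand setting or the handling of reads with several positions, so near copies and overlapping genes are uncertain.

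Genes were tested here with edgeR 4.0.16 (quasi-likelihood F-test, robust, TMM scaling, default low-count filter by group) over all 12 libraries with 1 mean per group, which left 18305 genes. Calls needed a Benjamini-Hochberg adjusted p below 0.05 over those genes, and every adjusted p is from this test unless DESeq2 1.42.0 is named. CPM are counts scaled to the library total after TMM, and log2 changes with their standard error (SE) come from the fit. Counting error is small beside the spread between libraries except for members with few counts. No 2 libraries agreed within sampling noise (smallest chi-square per degree of freedom 70.9 over 15260 genes). The procedure was tested on simulated data.

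Values in every library were given for members called in any of 6 comparisons, for the 5 ligands and 4 receptors of highest level per length, and for a short list of further members; the others are given by range and counts. The values of 1 listed receptor are not reported here, though it is part of the counts over members. Members and lists were chosen with earlier results of these data known. Alternatives changed scaling, tool, filter, libraries, gene length and GC trends, and a block on library number. Promoter windows came from RefSeq (GRCm38.p6), which gave one for 25 of the 37 listed members. The 12 without a window include Ccl2, Ccl4, Ccl5, Ccl19-ps3, Ccl24, Cxcl11, Cxcl16, Cxcl17, Ccr7, Ccr10 and Cxcr5.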

Additional observations from a re-analysis of the deposited data

How the results depend on the processing

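In HFD vs NC the 15 calls became 0 to 16 when 1 library was left out. They were lowest without NC 4 (3.06% of all genes called in either direction) and highest without HFD 2 (18.8%) or HFD+AE 3 (20.1%). The replicate block gave 0 (1.78% of all genes), and the replicate block with the length trend removed gave 1 (2.17%). RLE scaling gave 15 (15.9%), DESeq2 17 (20.6%), no low-count filter 12 (8.92%) and the 2 groups alone 15 (28.7%). The length trend removed gave 10 (14.5%) and the length and GC trends removed 13 (19.1%). The length trend removed ended the calls of Ccl2, Cxcl2, Cxcl10, Cxcr3 and Cxcr6 (adjusted p = 0.053 to 0.066). Counts for HFD vs NC include Ccl7 wherever it was called. In HFD+AE vs HFD the 0 calls became 0 to 12 when 1 library was left out, with 12 without HFD 2 (8.93% of all genes). DESeq2 gave 15 (11.7%), no low-count filter 9 (3.04%) and the 2 groups alone 5 (3.75%). Leaving out HFD+AE 3 and HFD+RE 3 gave 10 (22.5%). The length trend removed gave 1 (0.432%) and the length and GC trends removed 5 (2.99%). The replicate block gave 0 (0.0109%), and on HFD and HFD+AE only 11 (12.1%). Cxcr5, among the 15 and the 10, and Ccl7, among the 11, met the low-count filter only with the help of HFD libraries. In HFD+RE vs HFD the 0 calls became 0 to 3 when 1 library was left out, with 3 without HFD 2 (0.28% of all genes). DESeq2 gave 3 (0.946%). The log2 change of Cxcl13 there reversed to 0.39 without HFD 2, and ran from -2.26 to 0.39 over the libraries left out. HFD+RE vs HFD+AE gave 2 without HFD+AE 3 and HFD+RE 3 (22.1% of all genes). HFD+AE vs NC gave 1 with DESeq2 (4.42%) and 0 to 1 when 1 library was left out, with 1 without NC 5 (1.2%). HFD+RE vs NC gave 4 with DESeq2 (11.2%) and 4 without HFD+AE 3 and HFD+RE 3 (31.7%). It gave 1 with the length and GC trends removed (6.89%) and 0 to 3 when 1 library was left out, with 3 without HFD+RE 3 (21%). The cause of these differences was not tested.

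The library numbers share no stated litter, animal or day. Same-numbered libraries of HFD and HFD+AE had correlated deviations of -0.12, 0.11 and 0.09, and those of NC and HFD+RE -0.09 and 0.16, so the numbers were not taken to pair the samples. With 3 libraries a group, members of few counts such as Ccr1, Ccr10, Ccl3 and Ccl4 have standard errors of 0.64 to 0.95 on the log2 scale over the 6 comparisons, and changes of that size were not detectable.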
